A study of Mus musculus with 34 samples.

Results

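The nuclear genes that encode respiratory chain proteins were taken as every row whose gene symbol begins with Nduf, Uqcr or Atp5, or with Cox followed by a digit from 4 to 8. The rule found 88 of 23951 genes: 45 of complex I, 8 of complex III, 18 of complex IV and 17 of complex V. Genes were placed by name, so that complex I here includes Ndufa4, whose protein was later assigned to complex IV, and its relative Ndufa4l2, and complex V includes the related genes Atp5s and Atp5sl. Expression was analysed in 27 libraries, 1 per mouse, of which 20 were from hippocampal tissue and 7 from GFAP+ nuclei sorted from cortex. The hippocampal groups were control (n = 4), Hdac1 cKO (n = 5), 5XFAD (n = 6) and Hdac1 cKO with 5XFAD, named compound transgenic here (n = 5). The GFAP+ groups were control (n = 3, with a further library, control 2, not analysed here) and Hdac1 cKO (n = 4). Every mouse, controls included, carried the floxed allele Hdac1f/f, and the study's methods name male mice. Control and Hdac1 cKO hippocampi were from mice of 13 to 14 months, and all other groups were 13 months old. Deletion of Hdac1 was driven by Nestin-Cre, which acts in neural progenitors and so in neurons and astrocytes, while cells of other lineages such as microglia keep the gene. The 5XFAD mice carried transgenes of familial Alzheimer's disease, mutant human APP among them, driven by the Thy1 promoter in neurons and modelled amyloid deposition.

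Oxidative phosphorylation takes place in the inner mitochondrial membrane. Complex I oxidizes NADH, complex III passes the electrons to cytochrome c, complex IV reduces oxygen, and complex V uses the resulting proton gradient to make ATP. A few core subunits do the chemistry and many small accessory subunits surround them, and neurons depend on the pathway for most of their ATP. Several complex IV subunits exist as a broadly expressed form and a form restricted to heart and skeletal muscle, testis or lung, so the genes were read by complex and, within each complex, by role.

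The genotype labels were checked first. Hdac1 was at 5.91 to 10.7 FPKM (fragments per kilobase of transcript, scaled to library size) in control and 5XFAD hippocampi, at 2.36 to 3.03 in Hdac1 cKO and at 1.15 to 2.52 in compound transgenic hippocampi, with no overlap. In GFAP+ nuclei Hdac1 was at 9.91 to 22.3 FPKM in controls and 5.80 to 11.5 in Hdac1 cKO mice, and these ranges overlapped. The Thy1 row, which also collects transgene RNA, was at 303 to 388 FPKM without 5XFAD and 1563 to 2357 with it. The GFAP+ nuclei libraries also held RNA of genes known from other cells, with the neuronal gene Snap25 at 100.8 to 158 FPKM and the myelin gene Mbp at 250.2 to 638. Whether this RNA came from nuclei of other cells was not tested. Hippocampal libraries differed widely in choroid plexus RNA: its marker Ttr, transthyretin, ran from 53.8 to 20146 FPKM. The sum of 6 choroid plexus markers ran from 586 to 20346 FPKM in controls, 59.7 to 1626 in Hdac1 cKO, 56.4 to 7963 in 5XFAD and 62.0 to 14005 in compound transgenic mice. The labels name no batch, but control and Hdac1 cKO libraries carry another protocol text than 5XFAD and compound transgenic libraries. Any difference in handling between these pairs of groups and the effect of 5XFAD cannot be told apart in a comparison with controls.

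In hippocampal tissue the respiratory chain genes were among the most abundant transcripts. Their median was 778 FPKM, 72 of the 88 were in the top 5% of all rows, and together they made up 11.08% to 14.98% of the FPKM total of a library. The highest means were those of Atp5k (7202 FPKM, subunit e of ATP synthase), Ndufa3 (6871, an accessory subunit of complex I), Cox8a (5755), Uqcr11 (4618, a small complex III subunit) and Cox6c (4613). The catalytic and core subunits were lower on this scale. The median was 282 FPKM for the 7 core genes of complex I against 1108 for its 29 accessory genes, and 109.7 for the 3 core genes of complex III against 2350 for its 5 small subunits. Hippocampal libraries were made from the 3′ ends of transcripts, and FPKM divides by length all the same, so the level of a short gene is raised relative to a long one on this scale. The 7 assembly factors of complex I, which help to build it and are not part of it, had a median of 18.4 FPKM. Cox8c was listed at 0 in every library, and Ndufa4l2, a hypoxia-induced relative of Ndufa4, was under the filter in hippocampus, so 86 of the 88 genes were tested there.

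Of the isoform pairs of complex IV, the broadly expressed gene was the more abundant in every hippocampal library. In control hippocampi Cox8a was at 6040, 6257, 5803 and 6103 FPKM and its heart and muscle counterpart Cox8b at 40.1, 497, 269 and 194. Cox7a2 was at 1362 to 1557 FPKM and Cox7a1, the heart and muscle form, at 89.998 to 236. Cox6b1 was at 3038 to 3495 FPKM and Cox6b2, best known from testis, at 24.0 to 97.7. Cox6a1 averaged 3338 ± 23.2 FPKM (SD, n = 4) and Cox6a2 36.0 ± 4.00, while Cox4i1 averaged 4365 ± 253 and Cox4i2, the oxygen-sensitive lung form, 0.451 ± 0.147. The 3 genes for the identical c subunit of ATP synthase were all well expressed, at 1506 ± 89.1 FPKM for Atp5g1, 543 ± 32.3 for Atp5g2 and 1744 ± 118 for Atp5g3. The broad forms thus varied little between control mice, whereas Cox8b ran over a range of more than 10 times.

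The 120 bases upstream of the start sites of 3 such pairs are shown because the restricted genes carry the largest differences in the comparisons that follow. They are from RefSeq on GRCm38.p6, a later build than the mm9 annotation behind the expression values. Capitals mark a match to a GC box core (GGGCGG, bound by Sp factors), an ETS core (CCGGAAG), an NRF1 core (GCATGCGC) or a TATA box (TATAAA), each searched on both strands. They lie at chr19:7217617-7217736 (minus strand, Cox8a), chr7:140900447-140900566 (minus, Cox8b), chr9:79759854-79759973 (minus, Cox7a2), chr7:30184051-30184170 (plus, Cox7a1), chr7:30626115-30626234 (minus, Cox6b1) and chr7:4753095-4753214 (minus, Cox6b2).
Cox8a: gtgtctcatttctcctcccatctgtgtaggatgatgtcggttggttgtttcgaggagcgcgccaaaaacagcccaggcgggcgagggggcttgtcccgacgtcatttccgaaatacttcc
Cox8b: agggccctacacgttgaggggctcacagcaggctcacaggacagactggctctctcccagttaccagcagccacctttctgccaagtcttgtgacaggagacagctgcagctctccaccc
Cox7a2: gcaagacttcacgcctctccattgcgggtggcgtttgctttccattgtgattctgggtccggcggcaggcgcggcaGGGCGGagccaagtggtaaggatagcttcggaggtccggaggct
Cox7a1: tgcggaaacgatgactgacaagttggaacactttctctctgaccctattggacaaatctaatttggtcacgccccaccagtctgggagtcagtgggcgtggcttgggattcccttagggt
Cox6b1: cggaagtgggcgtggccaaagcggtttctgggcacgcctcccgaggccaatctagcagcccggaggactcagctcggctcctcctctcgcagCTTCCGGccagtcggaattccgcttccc
Cox6b2: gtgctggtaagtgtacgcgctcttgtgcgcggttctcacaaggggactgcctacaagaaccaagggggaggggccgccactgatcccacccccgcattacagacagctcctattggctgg

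In these stretches the GC box core was found upstream of Cox7a2 and the ETS core, on the opposite strand, upstream of Cox6b1. In the whole RefSeq window, from 250 bases before to 50 after the start site, Cox8a also held the ETS core at positions -5 and 33, Cox8b a TATA box at position 5 and Cox6b2 a GC box core at position -193. Windows were found for 73 of the 88 genes. Shares are of genes with a match in any of their windows. The NRF1 core was found for 15.1% of the 73, against 3.05% of all 27025 RefSeq genes and 4.04% of those in the deposited files. The ETS core was in 20.5%, against 9.93% and 12.9%. The GC box core was in 43.8%, against 38.2% and 50.1%, and the TATA box in 9.59%, against 15.7% and 14.3%. These counts describe letters in the windows and not binding.

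The first comparison asked what loss of HDAC1 alone changed in aged hippocampus. Most respiratory chain genes differed little between Hdac1 cKO and control mice. The study's criterion, a fold change of at least 1.5 with an unadjusted p under 0.05, was met by 4 of the 86 genes tested, a share near the 3.36% of all 14265 genes tested that met it. The 4 were tissue-restricted isoforms of complex IV, of which Cox8b, Cox7a1 and Cox6b2 were lower and Cox4i2 was higher. After Benjamini-Hochberg adjustment in limma 0 of the 86 passed, against 0.154% of all genes. At an unadjusted p under 0.05, 5 were lower (6.84% of all genes) and 1 was higher (4.91%). The median log2 fold change of the 86 genes was -0.01 and that of all genes -0.00068. By complex, 0 of 44 genes of complex I, 0 of 8 of complex III, 4 of 17 of complex IV and 0 of 17 of complex V met the criterion. Among the 11 general subunits of complex IV the log2 fold changes lay between -0.08 and 0.11.

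Cox8b had the largest difference. It lies at chr7:148084842-148086345 on the minus strand in mm9. Its 5 Hdac1 cKO values were 15.2, 16.6, 11.7, 3.07 and 30.8 FPKM, all below the lowest control (40.1 FPKM). The fold change on the log2(FPKM + 1) scale was -3.73 (SE 0.86, adjusted p = 0.193 in limma), with an exact two-sided permutation p of 0.0159, the smallest that 4 against 5 libraries allow. Choroid plexus RNA moved with Cox8b. In the 7 hippocampal libraries where Cox8b was above 100 FPKM, Ttr was at 5554 to 20146 FPKM. In the other 13 Ttr was at 53.8 to 3058. All 6 choroid plexus markers met the criterion as lower in Hdac1 cKO mice, with a median log2 fold change of -3.27. The part of choroid plexus RNA in the Cox8b difference was not tested, and in bulk tissue fewer cells of a type and less RNA per cell cannot be told apart.

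Cox7a1 (chr7:30969190-30971047, plus strand, mm9) was at 89.998, 108, 236 and 98.4 FPKM in controls. The Hdac1 cKO values were 47.4, 57.2, 73.3, 72.3 and 76.5 FPKM, again without overlap. The log2 fold change was -0.92 (SE 0.28, adjusted p = 0.253 in limma, exact permutation p = 0.0159), and -0.61 without control 3. Cox6b2 (chr7:4703396-4704696, minus strand, mm9) was at 24.0, 88.5, 97.7 and 69.5 FPKM in controls. In Hdac1 cKO mice it was at 22.6, 33.1, 15.6, 26.9 and 15.5 FPKM, and 2 of these were above the lowest control. Its log2 fold change was -1.46 (SE 0.44, adjusted p = 0.262 in limma, exact permutation p = 0.0476). The control with the lowest Cox6b2 and the lowest Cox8b, control 1, was also the control with the lowest Ttr (576 FPKM, against 12903 to 20146). When only libraries with Ttr under 2000 FPKM were fitted, which left 1 control assumed to vary like the other groups, 0 of the 86 genes met the criterion, against 731 of 14226 genes in all. The log2 fold change was then -1.59 for Cox8b, -0.48 for Cox7a1 and -0.13 for Cox6b2, none with p under 0.05 in limma. Without control 1, Cox6b2 (-1.91) and Cox8b (-4.44) passed after adjustment in limma, as did 290 of 14262 genes in all.

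The broad partners of these genes did not follow them. Cox8a was at 5379 to 6748 FPKM in Hdac1 cKO mice and 5803 to 6257 in controls (log2 fold change -0.01, 95% interval -0.19 to 0.16), Cox7a2 differed by -0.02 (-0.20 to 0.15) and Cox6b1 by -0.02 (-0.22 to 0.18). Cox4i2, at chr2:152579909-152590773 on the plus strand in mm9, went the other way from very low levels. It was at 0.585, 0.267, 0.554 and 0.399 FPKM in controls and at 3.11, 2.55, 0.327, 1.88 and 0.746 in Hdac1 cKO mice, with 4 of 5 above the highest control. The log2 fold change was 0.79 (SE 0.30, adjusted p = 0.325 in limma, exact permutation p = 0.0794), on a scale that understates changes of genes near 1 FPKM. The call was lost without control 2, Hdac1 cKO 1 or Hdac1 cKO 2. Cox6a2, the muscle form of another subunit, was at 26.3 to 55.0 FPKM in Hdac1 cKO mice and 31.6 to 41.3 in controls.

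**Figure D1:**
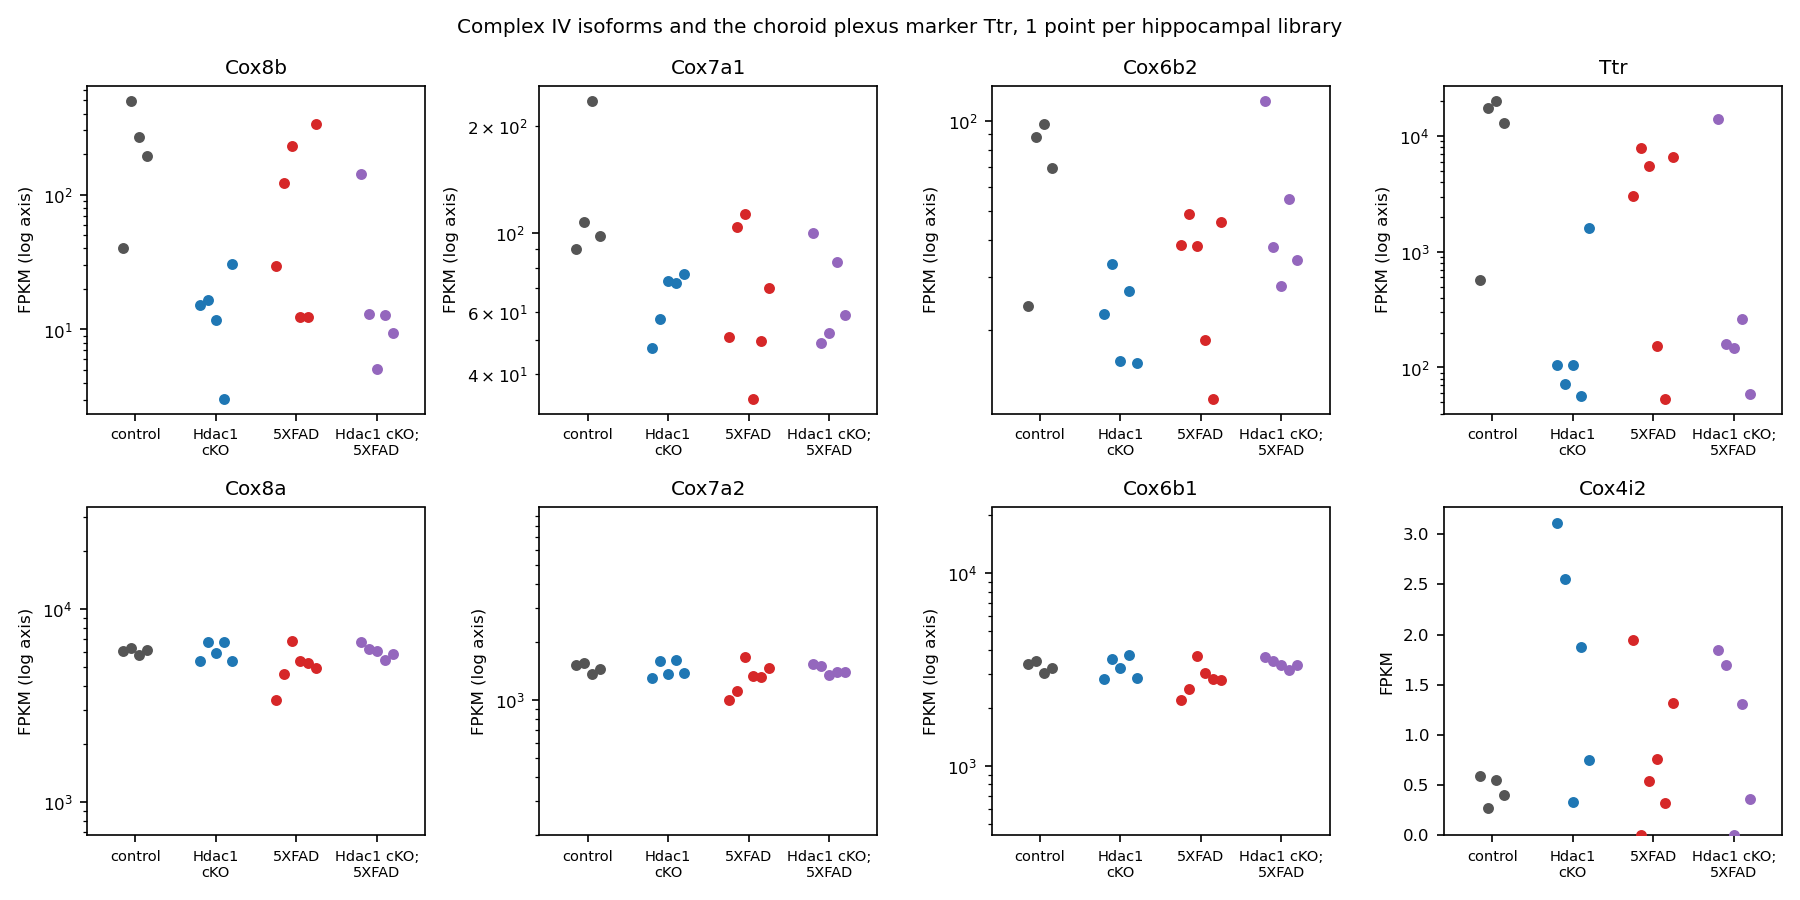
Level in FPKM (log axes, except for Cox4i2 on a linear axis) of the restricted isoforms Cox8b, Cox7a1, Cox6b2 and Cox4i2, of the broad isoforms Cox8a, Cox7a2 and Cox6b1 and of the choroid plexus marker Ttr, with 1 point per hippocampal library in 4 groups. Cox8b lies at 40.1 to 497 FPKM in controls and at 3.07 to 30.8 in Hdac1 cKO mice, while Cox8a spans 3366 to 6828 over all libraries.

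Outside complex IV, Ndufb7, an accessory subunit of the membrane arm of complex I, was the one gene whose groups did not overlap with p under 0.05. Controls were at 1031, 1096, 1190 and 1079 FPKM and Hdac1 cKO mice at 954, 1013, 939, 976 and 782. The difference was small, at -0.24 on the log2 scale (SE 0.08, adjusted p = 0.272 in limma, exact permutation p = 0.0159). In all, 3 of the 86 genes combined p under 0.05 with no overlap (Cox8b, Cox7a1 and Ndufb7), as 3.69% of all genes did. Among other lists of mitochondrial genes, the median log2 fold change was -0.01 for 77 mitochondrial ribosomal protein genes, 0.00 for 13 citric acid cycle genes, -0.07 for 4 complex II genes (1 lower with p under 0.05), 0.08 for 20 assembly factors of other names (1 higher) and 0.08 for 11 regulators of mitochondrial biogenesis (2 higher, 1 of them meeting the criterion). Leaving out 1 library changed the count of genes lower with p under 0.05 from 5 to 13 without Hdac1 cKO 2 (922 of 14275 in all, against 976 of 14265) and to 9 without Hdac1 cKO 4 (903 of 14265), the knockout libraries with the highest shares of respiratory chain transcripts (14.96% and 14.98% of the FPKM total).

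The next comparison asked whether the amyloid model alone changed these genes. In 5XFAD hippocampi most of them had a small negative fold change: 77 of 86 (7454 of 14402 in all), in all 4 complexes. The median log2 fold change was -0.21 against -0.01 for all genes. All 29 accessory genes of complex I and all 10 genes of the membrane sector and stalk of ATP synthase were negative, with medians of -0.25 and -0.22. The 7 core genes of complex I had a median of -0.16, with 5 negative, the 5 genes of the F1 head of ATP synthase, which makes ATP, one of -0.09, and the 3 core genes of complex III one of -0.10. Differences between these classes were not tested. Under quantile normalization the median of the 86 genes was -0.12 and with equal FPKM totals -0.13, with 74 and 72 genes negative. With equal totals the median of all genes was itself 0.06.

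Few single genes passed a test. At an unadjusted p under 0.05, 15 of 86 were lower (5.46% of all 14402 genes tested) and 1 was higher (5.25%). The count of 15 was 5 with a replicate block (574 of 14402 in all), 7 in limma without trend and robust settings (733 of 14402) and 34 with all hippocampal groups in 1 fit (887 of 14389). The criterion with a 1.5-fold change was met by 1 gene, Cox7a1 (2.95% of all genes), and 0 passed after adjustment in limma (0.708%). After adjustment 1 passed without 5XFAD 3 (129 of 14419 in all) and 1 under quantile normalization (108 of 14402). None combined p under 0.05 in limma with no overlap (2.73%). By complex, 8 of 44 genes of complex I, 1 of 8 of complex III, 2 of 17 of complex IV and 4 of 17 of complex V were lower with p under 0.05. The gene that was higher was Ndufaf1, an assembly factor of complex I, by 0.23 (SE 0.10, adjusted p = 0.440 in limma).

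**Figure D2:**
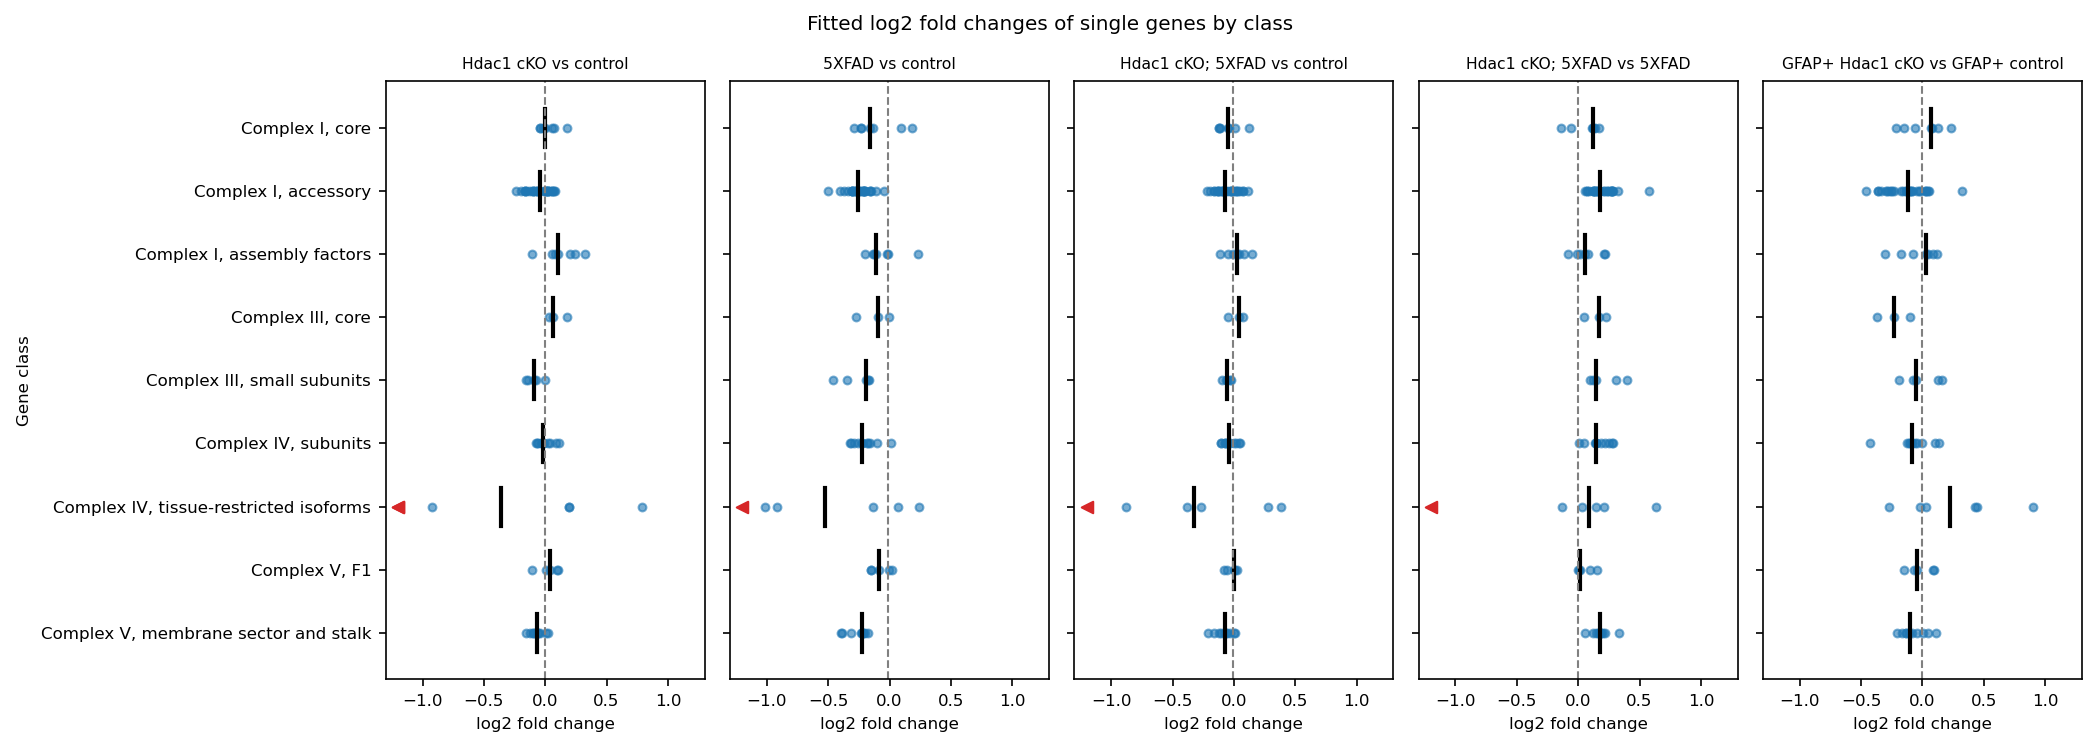
Fitted log2 fold change (log2(FPKM + 1) scale) of each gene, 1 point per gene, by class in 5 comparisons. Black bars are class medians, the dashed line is the median of all genes tested and red triangles stand for values beyond the axis. In 5XFAD against control the accessory genes of complex I all lie below 0 (median -0.25), and in the compound transgenic group against 5XFAD they all lie above 0 (median 0.18). Both comparisons use the same 5XFAD libraries, with opposite sign.

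The smallest p in limma belonged to Ndufb7. The 6 5XFAD libraries were at 704 to 1035 FPKM with a median of 851, below the lowest control (1031) in 5 of 6. Its log2 fold change was -0.37 (SE 0.10, adjusted p = 0.173 in limma, exact permutation p = 0.0190). Ndufb7 and the next 2 genes were singled out after their values were seen. Uqcr10, a small subunit of complex III, was at 3928, 4622, 4276 and 4362 FPKM in controls and at 2792 to 4546 in 5XFAD mice, with a median of 3219 and a log2 fold change of -0.34 (SE 0.13, adjusted p = 0.352 in limma). Ndufc2, an accessory subunit of the membrane arm of complex I, was at 568 to 628 FPKM in controls and 297 to 607 in 5XFAD mice, with a median of 459. In both genes the groups overlapped through 1 library, 5XFAD 3.

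Among the subunits chosen for their roles, Atp5g1 (c subunit), Cox5a (which binds thyroid hormone metabolites in complex IV) and Atp5o (the stalk protein that joins F1 to the membrane sector) had p under 0.05. Atp5g1 was at 1396 to 1583 FPKM in controls and 804 to 1447 in 5XFAD mice (log2 fold change -0.39, SE 0.14, adjusted p = 0.313 in limma). Cox5a differed by -0.31 (SE 0.13) and Atp5o by -0.22 (SE 0.10). The catalytic subunits of ATP synthase did not pass: Atp5a1 was at 368 to 406 FPKM in controls and 369 to 416 in 5XFAD mice, a difference of -0.01 (95% interval -0.17 to 0.16), and Atp5b differed by 0.02 (-0.17 to 0.22). Of the 7 core genes of complex I, 1 had p under 0.05, Ndufv2, by -0.29 (SE 0.12, adjusted p = 0.417 in limma). Ndufv1, which takes electrons from NADH, differed by 0.18 (-0.04 to 0.40) and Ndufs1, an iron-sulfur subunit, by -0.13 (-0.35 to 0.08). In complex III the Rieske iron-sulfur protein Uqcrfs1 differed by -0.27 (-0.59 to 0.05), Uqcrc1 by -0.00 (-0.21 to 0.20), Uqcrc2 by -0.10 (-0.37 to 0.18) and Uqcrh by -0.19 (-0.41 to 0.03). Of the 11 general subunits of complex IV, 10 were negative, and Cox7a2l was at 0.01. Those other than Cox5a did not pass, at -0.16 for Cox4i1, -0.18 for Cox5b, -0.10 for Cox6a1, -0.23 for Cox6b1, -0.26 for Cox6c, -0.18 for Cox7a2, -0.32 for Cox7c and -0.29 for Cox8a, as were Ndufa4 (-0.30), Ndufb8 (-0.20) and Ndufab1, the mitochondrial acyl carrier protein (-0.26).

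The restricted isoforms varied widely within the 5XFAD group. Cox7a1 was at 34.2 to 113 FPKM with a median of 60.6, below the lowest control in 4 of 6 libraries. Its log2 fold change was -0.92 (SE 0.40, adjusted p = 0.452 in limma, exact permutation p = 0.0857). Cox8b was at 12.4 to 336 FPKM with a median of 76.3 and Cox6b2 at 11.8 to 48.8 with a median of 38.2, and neither passed. The 2 5XFAD libraries with the lowest Ttr (153 and 53.8 FPKM) had the lowest Cox8b and Cox6b2.

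The shift was not the same in every 5XFAD mouse. The mean log2(FPKM + 1) of all 88 genes was 8.72, 8.85, 8.81 and 8.76 in controls. It was 8.27, 8.52, 8.86, 8.61, 8.47 and 8.68 in the 6 5XFAD libraries. Thus 5 of 6 were below the lowest control and 5XFAD 3 was above the highest. Counted by gene, 80 of 86 genes were below the control mean in 5XFAD 1, 72 in 5XFAD 2 and 69 in 5XFAD 4. The count was 79 in 5XFAD 5 and 68 in 5XFAD 6, but 19 in 5XFAD 3. Over all genes the share below the control mean was 49.2% to 50.9% in these libraries. In the other groups the count ran from 28 to 52 in controls, 14 to 73 in Hdac1 cKO and 29 to 67 in compound transgenic libraries. 5XFAD 1 was the lowest and 5XFAD 3 the highest of the 6 in each complex, while the order of the other 4 varied: the median shift from the control mean in 5XFAD 1 was -0.58 in complex I, -0.47 in complex III, -0.58 in complex IV and -0.45 in complex V, and in 5XFAD 3 it was 0.09, 0.10, 0.12 and 0.09. The count of 15 genes lower with p under 0.05 rested on single libraries. It was 51 without 5XFAD 3 (1026 of 14419 genes in all were lower there, against 787 of 14402), 8 without 5XFAD 1, 2 or 5 (606 to 741 in all), 8 without control 4 (594 of 14364) and 5 without control 2 (697 of 14404), while the median stayed between -0.27 and -0.15 when 1 library was left out. The call of Cox7a1 was lost in 7 of the 10 fits that left out 1 library.

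**Figure D3:**
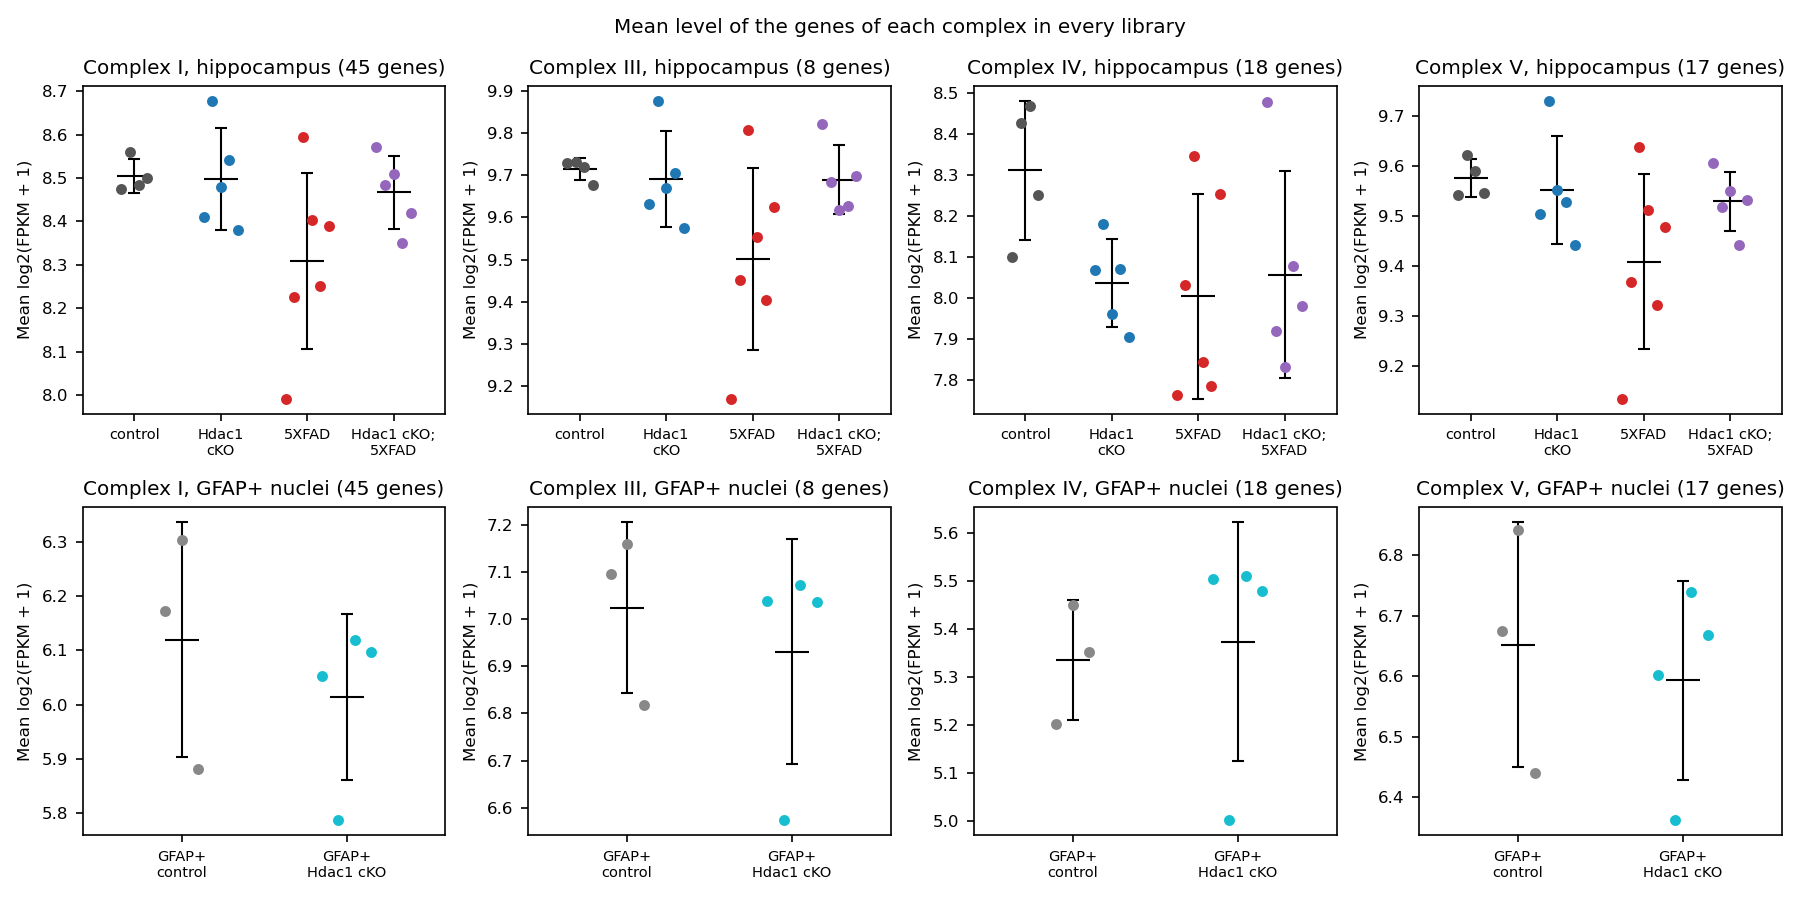
Mean log2(FPKM + 1) of the genes of each complex (45, 8, 18 and 17 genes), 1 point per library, with the group mean and SD as lines, for 4 hippocampal groups (top) and 2 groups of GFAP+ nuclei (bottom). In complexes I, III and V, 5 of 6 5XFAD libraries lie below every control and 5XFAD 3 lies above, and GFAP+ Hdac1 cKO 2 is the lowest nuclei library in each complex.

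Other measures moved with the shift. Of 77 mitochondrial ribosomal protein genes 62 were negative in 5XFAD mice, with a median of -0.14 and 14 lower at p under 0.05, and all 4 complex II genes were negative with a median of -0.22. The citric acid cycle (13 genes, median -0.06), regulators of mitochondrial biogenesis (11 genes, 0.01), cytosolic ribosomal proteins (83 genes, -0.04) and proteasome subunits (40 genes, -0.10) were nearer to 0. Transcript length moved with it too. Among all genes the median log2 fold change was -0.09 for 666 genes under 700 bases, -0.04 for 2875 genes of 700 to under 1500 bases and 0.01 for 9073 longer genes. For the respiratory chain it was -0.23 for 46 genes under 700 bases, of which 45 were negative, -0.21 for 27 genes of 700 to under 1500 bases and -0.07 for 10 longer genes. Across the 83 genes with a length, the log2 fold change and log2 length had a Pearson correlation of 0.40 (Spearman 0.35), a description across genes of the same libraries, and across all genes it was 0.07. Neuron markers went both ways, with a median of -0.17 (7 genes, 5 negative, 2 lower and 1 higher with p under 0.05). Microglia markers had a median of 0.73 (5 genes, 3 meeting the criterion). Astrocyte markers were positive in 5 of 7 (median 0.09), with 1 meeting the criterion and passing after adjustment in limma. Oligodendrocyte markers were positive in 5 of 5 (median 0.08, 1 higher with p under 0.05). Choroid plexus markers were negative in 6 of 6 (median -1.48, 0 with p under 0.05). The FPKM total was lowest in 5XFAD 1 and 5XFAD 5 (725060 and 753183). With only libraries under 2000 FPKM of Ttr, the groups compared kept 1 control, 5XFAD 4 and 5XFAD 5. The median of the 86 genes was then -0.20, in a fit without 5XFAD 3. The parts of transcript length, cell composition and library total in the shift were not tested.

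**Figure D4:**
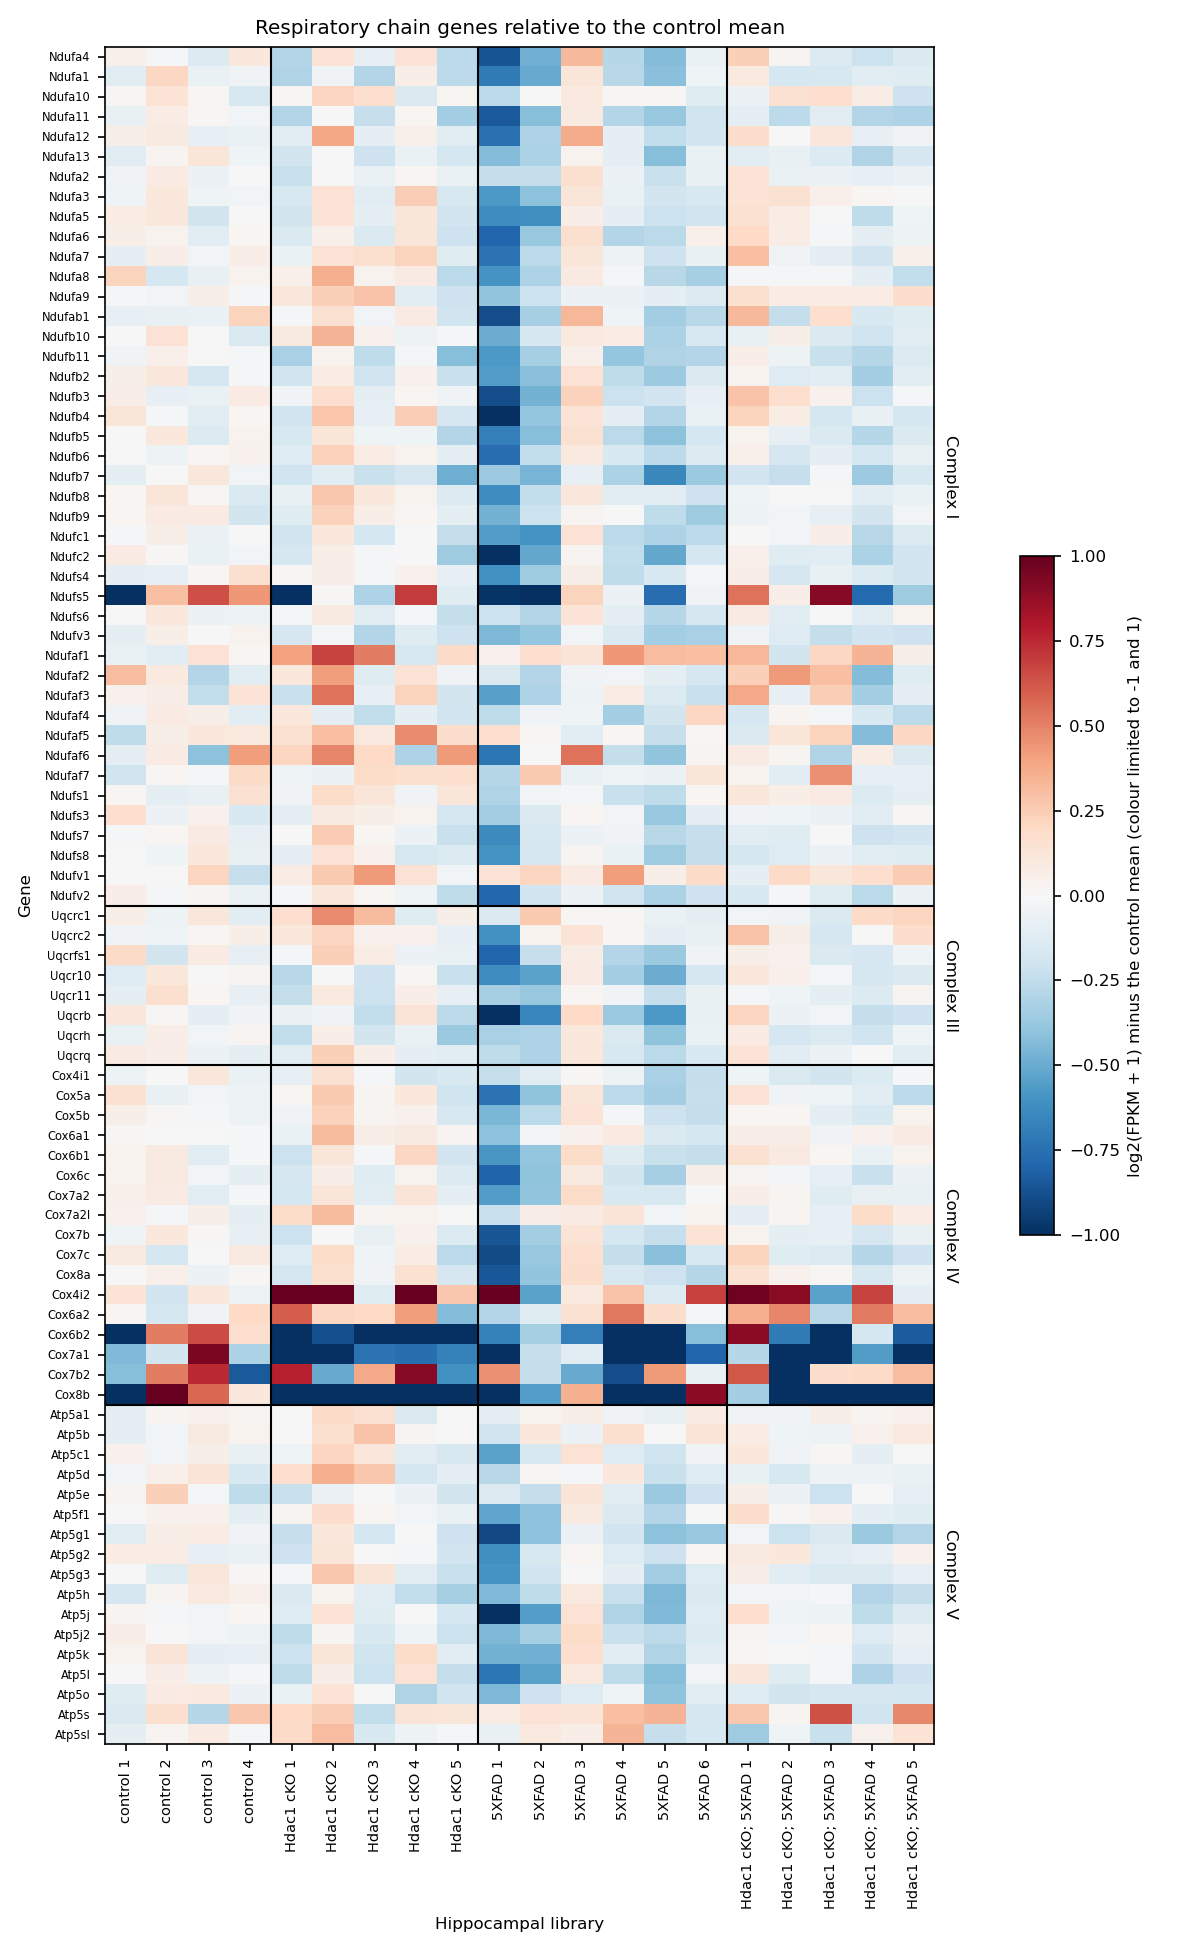
Each of 85 genes (rows, grouped by complex) in each of 20 hippocampal libraries (columns, grouped by genotype), coloured by log2(FPKM + 1) minus the control mean, with colours limited to -1 and 1. The column of 5XFAD 1 is blue over nearly its whole height (80 of 86 genes below the control mean) and that of 5XFAD 3 is mostly red (19 of 86 below). Over all genes, 50.9% were below the control mean in 5XFAD 1 and 49.98% in 5XFAD 3. Cox8b, Cox7a1 and Cox6b2 stand out as single rows.

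Loss of HDAC1 in the amyloid model was compared first with the same 4 controls. In compound transgenic mice 59 of 86 respiratory chain genes were negative (7377 of 14348 in all). The median log2 fold change was small, at -0.05 against -0.01 for all genes. The mean log2(FPKM + 1) of all 88 genes was nevertheless below the lowest control in 4 of 5 libraries and above the highest in 1. Its group mean was 8.70, against 8.78 in controls. By complex the medians were -0.05, -0.04, -0.06 and -0.06 for I, III, IV and V. Cox8b and Cox7a1 met the criterion (2 of 86, against 4.24% of all 14348 genes tested), and 0 passed after adjustment in limma (0.662%). At an unadjusted p under 0.05, 8 were lower (5.15%) and 0 were higher (5.34%). Microglia markers were higher with p under 0.05 in 5 of 5 (median 1.03). Astrocyte markers were positive in 6 of 7 (median 0.27, 2 meeting the criterion) and oligodendrocyte markers in 5 of 5 (median 0.19). Choroid plexus markers were negative in 6 of 6 (median -2.67, 3 meeting the criterion) and endothelial markers in 3 of 3 (median -0.45). Of the latter, Cldn5 (0.311 to 2.63 FPKM) and Pecam1 (0.315 to 3.15) were low in both groups. Neuron markers had a median of 0.02. The part of these in the values was not tested. Because the comparisons with controls use the same 4 mice, their values are given side by side and their likeness was not taken as a result.

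Cox8b was at 142, 12.9, 5.07, 12.8 and 9.40 FPKM in compound transgenic mice, with 4 of 5 below the lowest control. Its log2 fold change was -3.36 (SE 1.10, adjusted p = 0.336 in limma, exact permutation p = 0.0317). The library at 142 FPKM, compound transgenic 1, was the one with high Ttr (13910 FPKM, against 58.9 to 265 in the other 4). Cox7a1 was at 100.3, 49.0, 52.3, 82.9 and 58.8 FPKM, with 4 of 5 below the lowest control (log2 fold change -0.88, SE 0.32, adjusted p = 0.381 in limma, exact permutation p = 0.0476). With only libraries under 2000 FPKM of Ttr, Cox8b differed by -1.97 and Cox7a1 by -0.59, neither with p under 0.05 in limma, and 0 of the 86 genes met the criterion, against 1109 of 14226 genes in all. The call of Cox8b was lost without control 2, and that of Cox7a1 without control 3 or compound transgenic 2, 3 or 5. Both calls were also lost with a replicate block (593 of 14348 genes in all met the criterion there).

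Ndufa11 and Atp5o combined p under 0.05 with no overlap, as 3.84% of all genes did, with small differences. Each lost p under 0.05 in limma in 3 of 19 alternatives, among them the fit of all hippocampal groups. Ndufa11, an accessory subunit of complex I, was at 217, 239.8, 231 and 224 FPKM in controls and 213, 189, 211, 186 and 184 in compound transgenic mice (log2 fold change -0.21, SE 0.07, adjusted p = 0.283 in limma, exact permutation p = 0.0159). Atp5o was at 1511, 1741, 1757 and 1579 FPKM in controls and 1502, 1447, 1461, 1465 and 1458 in compound transgenic mice (log2 fold change -0.16, SE 0.06, adjusted p = 0.2997 in limma, exact permutation p = 0.0159). The compound values of Atp5o sat close together and just under the lowest control. A near-identical copy of the end of Atp5o lies elsewhere in the genome, so its reads may be shared, and none was found for Ndufa11. Without compound transgenic 1 the count of genes lower with p under 0.05 was 16 (878 of 14366 in all), and without control 2 it was 5 (632 of 14342). It was 2 with a replicate block (503 of 14348), 2 with all hippocampal groups in 1 fit (882 of 14389) and 3 without trend and robust settings (770 of 14348).

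Compared with 5XFAD mice, most respiratory chain genes had a small positive fold change in compound transgenic mice. The same 5XFAD libraries enter here as in the comparison of 5XFAD with controls, so the opposite signs are not independent results. Of 86 genes 79 were positive (7143 of 14326 in all). By complex these were 40 of 44 in complex I, 8 of 8 in III, 15 of 17 in IV and 16 of 17 in V. The median log2 fold change was 0.15 against -0.00046 for all genes. It was 0.056 under quantile normalization, with 25 genes negative in place of 7, and 0.065 with equal FPKM totals, with 20 negative and the median of all genes at -0.07. Single genes rarely passed: 0 met the criterion (1.28% of all 14326 genes tested), 0 passed after adjustment in limma (0.00698%), 4 were higher with p under 0.05 (3.91%) and 0 were lower (2.7%). With all hippocampal groups in 1 fit 13 were higher (725 of 14389 in all). The 4 were Cox6b1 (0.28), Ndufa3 (0.28), Uqcr10 (0.31) and Ndufa9 (0.27).

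Ndufa9, which sits where the arms of complex I meet, was the one gene that combined p under 0.05 with no overlap (0.551% of all genes). It was at 101 to 127 FPKM in 5XFAD mice with a median of 122. The compound transgenic values were 148, 139.7, 139.7, 139.4 and 149 FPKM, all higher than every 5XFAD library. The log2 fold change was 0.27 (SE 0.08, adjusted p = 0.700 in limma), and the exact permutation p of 0.00433 is the smallest that 5 against 6 libraries allow. Controls were at 130.0 to 138 FPKM, between the groups, and Hdac1 cKO mice at 115 to 161, across both. All 6 5XFAD values were thus also below every control, with a log2 fold change of -0.16 (adjusted p = 0.550 in limma). In that comparison 1 of 86 genes had no overlap, against 418 of 14402 in all. Ndufa9 had been picked through the same 5XFAD values, so this is not further support.

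The tendency depended on single 5XFAD libraries. Without 5XFAD 1 the median was 0.086 and 13 genes were negative, and 3 were higher with p under 0.05 (427 of 14315 in all). Without 5XFAD 3, 36 genes were higher with p under 0.05 (869 of 14337 in all, against 560 of 14326). Without compound transgenic 4 there were 11 (502 of 14310), and without compound transgenic 1 there were 2 (450 of 14309). The median stayed between 0.09 and 0.22 when 1 library was left out. Among all genes the median was 0.10 for those under 700 bases, 0.05 at 700 to under 1500 bases and -0.02 for longer ones, and among respiratory chain genes 0.18, 0.15 and 0.09. Across the 83 genes the log2 fold change and log2 length had a Pearson correlation of -0.02 and a Spearman correlation of -0.26. Mitochondrial ribosomal protein genes (63 of 77 positive, median 0.11), proteasome subunits (30 of 40, 0.12) and cytosolic ribosomal proteins (71 of 83, 0.11) were also mostly positive. Among markers of cell types, choroid plexus genes were negative in 6 of 6 (median -1.26, 0 with p under 0.05). Endothelial genes were lower with p under 0.05 in 3 of 3 (median -0.43). Of these, Cldn5 (0.311 to 2.37 FPKM) and Pecam1 (0.315 to 1.28) were near the floor in both groups, so their values are less precise. Microglia genes were positive in 5 of 5 (median 0.29, 2 with p under 0.05) and astrocyte genes in 6 of 7 (median 0.13, 1 meeting the criterion). The part of any of these in the respiratory chain values was not tested.

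Whether Hdac1 loss acted differently with and without 5XFAD was tested by the interaction, the effect in 5XFAD mice minus the effect in mice without it. The median over 86 genes was 0.19 (0.01 over all genes) and 71 were positive (7318 of 14389 in all). With p under 0.05, 8 were positive (4.86% of all 14389 genes tested) and 1, Ndufaf1, was negative (4.1%). Cox6b2 was the 1 gene that also passed 1.5-fold (4.07%), and 0 passed after adjustment in limma (0% of all genes). Cox6b2 was at 116, 37.7, 28.1, 54.6 and 34.3 FPKM in compound transgenic mice, so that its fold change for Hdac1 loss was 0.64 (SE 0.46) in 5XFAD mice and -1.46 (SE 0.44) without 5XFAD. The difference of these effects was 2.10 (SE 0.67, adjusted p = 0.385 in limma), and in 29 of 29 alternatives it kept its direction with p under 0.05. With low-Ttr libraries alone, where control 1 was the only control and 5XFAD 4 and 5XFAD 5 the only 5XFAD libraries, the value of Cox6b2 was 1.42. Choroid plexus markers had a median interaction of 1.75, positive for 6 of 6. Their part in it was not tested. Next came Ndufb7, at 0.42 (SE 0.13, adjusted p = 0.376 in limma). With libraries scaled to the same FPKM total the median of the 86 genes was 0.0497 and that of all genes -0.11, and under quantile normalization the median was 0.055. In both, 4 genes were positive and 5 negative with p under 0.05, against 341 and 1245 of all genes with equal totals and 614 and 711 under quantile normalization. Without 5XFAD 3 there were 30 positive genes with p under 0.05 (921 of 14381 in all), and without Hdac1 cKO 1 there were 5 (662 of 14385). The median of the 86 genes fell to 0.11 without 5XFAD 1.

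In GFAP+ nuclei from cortex, loss of HDAC1 was not followed by a detectable change of respiratory chain genes. Of 87 genes tested 0 met the criterion (2.58% of all 15070 genes tested) and 0 passed after adjustment in limma (0.0133%). With p under 0.05, 1 was lower (2.26%) and 1 higher (2.44%), and 1 combined p under 0.05 with no overlap (2.95%). The median log2 fold change was -0.08 against -0.01 for all genes, with 59 genes negative (7691 of 15070 in all). By complex it was -0.11, -0.09, -0.04 and -0.07. With 3 against 4 libraries the smallest exact permutation p is 0.0571.

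The gene that was higher was Cox6b2. It was at 15.4, 18.002 and 11.98 FPKM in control nuclei and at 24.4, 18.7, 20.4 and 19.4 in Hdac1 cKO nuclei, without overlap (log2 fold change 0.44, SE 0.18, adjusted p = 0.984 in limma, exact permutation p = 0.0571). In hippocampus the effect of Hdac1 loss on the same gene had been -1.46 without 5XFAD and 0.64 with it. Ndufc2, the gene that was lower, was at 149.8, 142 and 112 FPKM in control nuclei and 114, 72.0, 101 and 107 in Hdac1 cKO nuclei (log2 fold change -0.46, SE 0.18, adjusted p = 0.984 in limma, exact permutation p = 0.114). Cox8b and Cox7a1 were low, at 0 to 2.85 and 0.780 to 13.8 FPKM. The mean log2(FPKM + 1) of all 88 genes was 6.16, 6.31 and 5.97 in control nuclei and 6.14, 5.81, 6.20 and 6.17 in Hdac1 cKO nuclei, so the groups overlapped and Hdac1 cKO 2 was the lowest library. Without control 4, the control with the lowest mean, 4 genes met the criterion, as did 531 of 15036 genes in all. Astrocyte markers were positive in 6 of 7 genes (median 0.11, 2 higher with p under 0.05). Oligodendrocyte markers were negative in 5 of 5 genes (median -0.28, 0 with p under 0.05). Microglia markers were negative in 4 of 5 (median -0.27) and neuron markers in 4 of 7 (median -0.20). Endothelial markers had a median of -0.35, with Cldn5 lower in every Hdac1 cKO library. Choroid plexus markers were positive in 5 of 6 genes (median 0.54, 2 meeting the criterion), with Ttr at 6.40 to 131 FPKM in controls and 95.9 to 246 in Hdac1 cKO nuclei. Their part in the values was not tested.

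Tissue and nuclei libraries differed in region, compartment and preparation, so their levels are set side by side without a test. In nuclei the 88 genes had a median of 101 FPKM, 55 were in the top 5% of rows, and they made up 1.78% to 2.28% of the FPKM total. The most abundant were Uqcr11 (555 FPKM), Cox8a (436), Cox4i1 (337), Cox6a1 (337) and Atp5k (300.1). FPKM totals were 465218 to 525685 in nuclei and 725060 to 881139 in hippocampus. The counts that follow were made for the respiratory chain only and not over all genes, so they show no trait particular to it. For 75 genes every nuclei library was below every hippocampal library, 11 overlapped, and 2 were higher in every nuclei library. These 2 were the oxygen-regulated forms Cox4i2 (mean 13.6 FPKM in nuclei, 1.03 in hippocampus) and Ndufa4l2 (14.1 and 0.358). Both are also expressed by vascular cells. Of 3 endothelial markers, Cldn5 was at 15.6 to 43.2 FPKM in nuclei and 0.311 to 2.63 in hippocampus, while Flt1 (3.58 to 6.73 and 3.29 to 6.18) and Pecam1 (0.666 to 1.01 and 0.315 to 3.15) overlapped. The part of vascular cells in these levels was not tested. Neither gene passed between the GFAP+ groups: Cox4i2 was at 14.2, 19.3 and 7.496 FPKM in controls and 15.99, 7.995, 14.8 and 15.2 in Hdac1 cKO nuclei, and Ndufa4l2 at 14.0, 18.8 and 15.9 against 13.9, 11.2, 10.3 and 14.4.

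**Figure D5:**
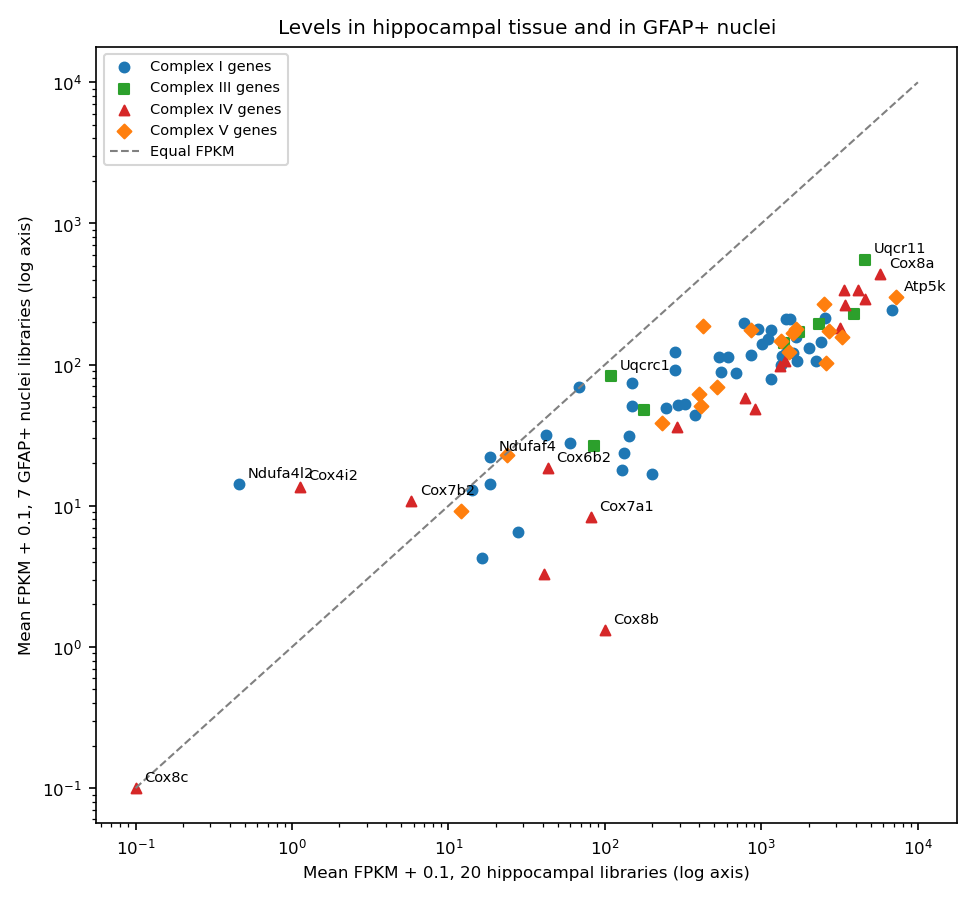
Mean FPKM plus 0.1 of each of the 88 genes in 20 hippocampal libraries (horizontal, log axis) and in 7 GFAP+ nuclei libraries (vertical, log axis), with symbols by complex and a dashed line at equal FPKM. Most genes lie below the line (75 with every nuclei library under every hippocampal library), and Cox4i2 and Ndufa4l2 lie above it at 13.6 and 14.1 FPKM in nuclei. The same count was not made over all genes.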

How the data were processed

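RNA of 27 libraries was analysed. The labels list 34 samples. The other 7, of which 6 are ChIP-seq samples, were not analysed here. Per the labels and the study's methods, the authors aligned reads with TopHat to mm9, counted fragments with Cufflinks 2.0.0 and deposited 1 FPKM value per gene and library. Hippocampal libraries came from a 3′ digital gene expression method and GFAP+ nuclei from a SMART-Seq kit, so the 2 kinds were fitted apart. FPKM does not hold fragment counts, so no counting interval or detection limit could be given. From the steps between low FPKM values, depth relative to control 1 of each kind was 0.754 to 2.35 in hippocampus and 0.869 to 1.26 in nuclei. A hippocampal gene near 1 FPKM, such as Cox4i2, is therefore less precise than the abundant members.

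Values were tested as log2(FPKM + 1) in limma 3.58.1 (R 4.3.3, trend and robust settings), for each pair of groups on its own and for the interaction on all 4 hippocampal groups. A gene entered a fit where its mean over the fitted libraries reached 0.5 FPKM, and p-values were adjusted over all of them by the Benjamini-Hochberg method. Called genes are those with a fold change of at least 1.5 and p under 0.05, as in the study. Exact permutation tests over libraries were two-sided. For genes named because their groups did not overlap, this p is the smallest possible by that choice and adds nothing to it. The p-values measure the spread between mice. Replicate numbers did not pair samples: correlations of same-numbered deviations lay between -0.113 and 0.0529.

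Genes with per-library values were the called ones, those with p under 0.05 and no overlap (up to 4 in each direction), a fixed list of catalytic and core subunits with isoform pairs, and the 5 most abundant. The values of 1 gene of the fixed list are not reported here, and it is not drawn in the plot of single genes by library, but it is kept in all counts and medians. The members and lists were chosen with earlier results of these data known. Transcript lengths are medians of coding transcripts of the mm9 annotation. Of 85 members with a transcript, 25 had a copy of its last 300 bases elsewhere in mm9 (minimap2 2.31-r1302, at least 95% identity over 150 bases), and their values are uncertain where reads were shared. Cox8b, Cox7a1, Cox6b2 and Cox4i2 had none. Alternatives were the pseudocount (0.1), the filter (none, or 1 FPKM), quantile normalization, median scaling, folds from mean FPKM, limma without trend and robust settings, a replicate block, all hippocampal groups in 1 fit and leaving out each library. After the data were seen, scaling to equal FPKM totals and a fit of libraries under 2000 FPKM of Ttr were added. Python 3.11.15, pandas 2.3.3, scipy 1.17.1 and matplotlib 3.10.9 were used.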

Additional observations from a re-analysis of the deposited data

Results flagged for a closer look

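Of 205 sets of values in groups of 4 to 6 libraries, 15 held a library far from the others. Chance gives about 1 in 20. Among controls, Atp5a1 was low in control 1 (368 FPKM), Ndufa3 high in control 2 (7580.3 FPKM), Cox7a1 and Ndufa9 high in control 3 (236 and 138 FPKM) and Ndufab1 high in control 4 (392 FPKM). Among 5XFAD mice, Uqcrc1 was high in 5XFAD 2 (126 FPKM). In compound transgenic 1, the library with high Ttr, the mean log2(FPKM + 1) of all 88 genes was 8.87, Atp5g3 was at 1820.0 FPKM, Cox7c at 1141 and Cox8b at 142, each the highest of its group. In GFAP+ nuclei, Hdac1 cKO 2 was the lowest of its group for the mean log2(FPKM + 1) of all 88 genes (5.81), of complex III (6.57) and of complex IV (5.00), and for Atp5g3 (113 FPKM) and Cox4i2 (7.995 FPKM). The effect of Hdac1 loss on Cox6b2 differed with and without 5XFAD by 2.10 on the log2 scale (adjusted p = 0.385 for the interaction in limma).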

How the results depend on the processing

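For the 13 cases of a gene that met the criterion, or had p under 0.05 and no overlap, 256 alternatives were run: 220 kept their direction and p under 0.05, 36 lost p under 0.05 and 0 reversed. The values that moved were mostly counts of called genes, and the cause was not tested. Against control, the count for Hdac1 cKO was 4 (480 genes in all) and 3 to 4 without single libraries (411 to 659). The count for 5XFAD was 1 (425 in all), and 0 under quantile normalization (420) and with equal FPKM totals (507). It was 2 with all hippocampal groups in 1 fit (435) and 0 to 3 without single libraries (410 to 605). The count for compound transgenic mice was 2 (608 in all). It was 0 with a replicate block (593) and 1 to 2 without single libraries (557 to 755). Against 5XFAD, their count was 0 (184 in all), 1 with low-Ttr libraries (376) and 0 to 1 without single libraries (183 to 251). The interaction count was 1 (586 in all), 2 without a filter (659) and 2 without trend and robust settings (580). It was 1 to 3 without single libraries (533 to 756). The interaction median (0.19) was 0.0497 with equal FPKM totals, where that of all genes was -0.11. In GFAP+ nuclei the count was 0 (389 in all), 1 with a replicate block (426) and 0 to 4 without single libraries (384 to 531). The median for 5XFAD (-0.21) was -0.12 under quantile normalization, -0.13 with equal FPKM totals and -0.22 with a replicate block, and its 15 genes lower with p under 0.05 were 5 with a replicate block, 7 without trend and robust settings and 34 in 1 fit. Single genes with p under 0.05 and overlapping groups, such as Ndufb7 or Uqcr10 in 5XFAD mice, were followed only through such counts. Leaving out a library moved the median between -0.06 and 0.02 for Hdac1 cKO, -0.07 and -0.02 for compound transgenic mice, 0.11 and 0.24 for the interaction and -0.17 and 0.02 for GFAP+ nuclei. The equal totals and low-Ttr fits were chosen after seeing the data. In the low-Ttr fit 1 control was assumed to vary like the other groups. The 5XFAD group was represented there by 5XFAD 4 and 5XFAD 5 alone.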
